A study of Mus musculus with 41 samples.

Results

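The 10 genes described here are imprinted genes with roles in growth, Peg10, Igf2, H19, Peg3, Mest, Dlk1, Meg3, Plagl1, Cdkn1c and Grb10. The set was chosen by Peg10 counts, which were higher in lesions from hosts deficient in group 2 innate lymphoid cells (ILC2s), and the question was whether the other 9 shared that difference. All 10 were found among the 21249 genes of the count table. The comparison of deficient with competent hosts chose Peg10, so its values there are a description and no test of them is given. Peg10 was 2.70 ± 0.45 log2 units higher (± SE) in deficient than in Cre-control hosts, and 1.54 higher without the library highest in Peg10. In that comparison none of the other 9 genes showed a difference of that size: theirs lay between -0.57 and 0.21. Peg10 did not stand apart in the deficient group with added PBS, set against 3 competent genotypes. There it was 0.59 ± 0.47 higher, below Dlk1 (1.27 ± 0.69) and Mest (0.99 ± 0.27). Of the other 9, 8 were above 0 there and 1 was below.

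Imprinted genes are read from the copy inherited from 1 parent and kept silent on the other. Several act on growth in opposite directions, with paternally expressed members such as Igf2 promoting growth and maternally expressed members such as Cdkn1c and Grb10 restraining it. Many are high in the fetus and placenta, fall after birth and come back in regenerating tissue, with H19, Igf2, Dlk1 and Meg3 known from muscle and Peg10 from the placenta. Peg10 derives from a retrotransposon and is needed for the placenta to form.

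The series holds 41 bulk RNA-seq libraries of mouse endometriosis lesions in 11 groups, made by gluing uterine punches of 4 mm to the inner peritoneal wall of recipients aged 12 to 16 weeks. From day 7 the mice were given 3 intraperitoneal injections over 6 days, of 1 µg IL-33, a cytokine that activates ILC2s, or of PBS. Deficient mice carried Nmur1iCre-eGFP and Id2fl/fl, so that Cre driven by Nmur1 removes Id2, a regulator that innate lymphoid cells need, in the cells that use the driver. The deficient groups under IL-33 were the plain group, the group with added PBS, the group given 250000 ILC2s before IL-33 (n = 4 each) and the group given 120000 ILC2s (n = 2), and a further deficient group had PBS alone (n = 4). In the lesion transfers, 4 libraries came from Nmur1iCre-eGFP fragments placed in deficient recipients and 4 from deficient fragments placed in Nmur1iCre-eGFP recipients, all under IL-33. The competent groups under IL-33 were C57Bl/6J wild type given 120000 ILC2s (n = 3), untransferred wild type, Cre controls (Nmur1iCre-eGFP) and floxed controls (Id2fl/fl; n = 4 each). Outside the transfers, fragment and recipient were taken to share a genotype. Whether replicates are separate animals is not labelled, and p-values therefore measure the spread between libraries, part of which may be technical.

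Peg10 is the member that the set was built around, and its mRNA is known to be translated into a shorter and a longer protein by a ribosomal frameshift at a slippery heptamer. The heptamer was found 1 time in the transcript Peg10-202, inside its annotated coding sequence, and the counts add up reads for both proteins. It is shown in capitals with its neighbouring bases, at chr6:4755315-4755344 (GRCm38, plus strand), and the annotated reading frame of 376 codons meets its stop 22 bases on.
Peg10: gaattcgccgccGGGAAACtccccggcccc
Plagl1 encodes a zinc finger protein described as a regulator of other imprinted genes that binds the palindrome GGGGCCCC, which reads the same on both strands. Windows of 250 bases upstream of a start were read from RefSeq (GRCm38.p6), which gave 14 windows for 7 of the 10 members. Peg10, H19 and Cdkn1c had no window, so the motif was not looked for there. The motif stood in 1 of the 14, that of Peg3 on chr7:6730420-6730669 (minus strand), and in 292 of 32851 windows over all genes (0.889%). The Peg3 window is shown with the motif in capitals, beside those of the neighbours Dlk1 on chr12:109452573-109452822 and Meg3 on chr12:109540746-109540995 (both plus strand), a pair of genes in 1 imprinted cluster that moved together across the libraries and whose windows held no match.
Peg3: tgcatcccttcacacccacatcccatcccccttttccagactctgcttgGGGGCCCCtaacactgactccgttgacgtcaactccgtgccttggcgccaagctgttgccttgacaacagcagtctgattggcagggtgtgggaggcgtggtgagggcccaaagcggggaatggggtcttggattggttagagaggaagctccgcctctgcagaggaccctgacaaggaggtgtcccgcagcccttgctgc
Dlk1: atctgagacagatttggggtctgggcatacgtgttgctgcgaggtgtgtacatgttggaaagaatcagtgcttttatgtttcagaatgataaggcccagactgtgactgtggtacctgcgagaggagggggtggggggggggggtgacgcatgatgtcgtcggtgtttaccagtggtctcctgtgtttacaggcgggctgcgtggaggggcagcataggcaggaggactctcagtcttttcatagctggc
Meg3: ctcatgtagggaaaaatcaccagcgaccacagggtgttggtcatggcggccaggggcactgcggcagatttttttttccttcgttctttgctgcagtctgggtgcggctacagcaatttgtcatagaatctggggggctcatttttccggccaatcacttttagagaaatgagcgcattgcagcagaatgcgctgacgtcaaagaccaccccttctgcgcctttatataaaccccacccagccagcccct

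Library totals were 28.9 to 70.5 mega-counts (median 42.9). The lesions differed in tissue content. Skeletal muscle genes (10 markers) took 0.00437% to 5.32% of the counts, stromal genes 1.29% to 5.58% and endometrial epithelial genes 0.00107% to 0.135%, with the epithelial factor Foxa2 at 0 in 6 of 41 libraries. The liver list passed 1% of the counts in 4 libraries and reached at most 0.115% in the others. In bulk tissue, fewer cells of a type and less RNA per cell cannot be told apart. Library numbers of the plain deficient and Cre-control groups interleave, and so do those of the 250000-cell and added-PBS groups, whereas other groups compared sit in different runs of numbers, so that a run and a group cannot be told apart there.

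Levels are in CPM, the counts of a library brought to a shared total with TMM factors. Per kilobase of exon, H19, a noncoding RNA, was the most abundant member with a median of 273 CPM per kb over the 41 libraries. Grb10, an adaptor that dampens growth factor receptor signalling, followed at 26.9 CPM per kb and Meg3, a noncoding RNA, at 19.7 CPM per kb. Peg10 (2.05 CPM per kb), the growth factor Igf2 (1.58 CPM per kb) and Dlk1 (0.912 CPM per kb), a membrane protein of progenitor cells, were lowest. The highest library exceeded the lowest 54.6-fold for Peg10, 53.6-fold for Dlk1, 49.0-fold for H19 and 28.8-fold for Igf2, against 3.08-fold for Grb10. Peg10 had at least 233 counts in each library, Igf2 at least 32 and Dlk1 at least 15.

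Peg10 (chromosome 6, 4747306 to 4760517, plus strand, GRCm38, protein-coding) had 24.5, 18.01, 14.0 and 70.2 CPM in the plain deficient lesions under IL-33, against 9.84, 5.93, 8.11 and 8.47 CPM in Cre controls. Cre fragments in deficient recipients held 16.7, 15.3, 307 and 20.9 CPM, against 8.71, 7.46, 10.04 and 7.15 CPM in deficient fragments in Cre recipients. Each of the 8 libraries from deficient hosts was thus above each of the 8 from Cre-control hosts, whichever fragment had been implanted. Of all genes, 0.626% showed that order and 1.49% did not overlap in either direction, and since this contrast chose Peg10 nothing is read from its place among them.

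The other competent genotypes were not alike. Floxed controls held 14.2, 15.8, 13.6 and 13.6 CPM of Peg10, overlapping the plain deficient lesions, and wild-type lesions held 7.96, 10.1, 7.76 and 6.75 CPM, below all 4 of the plain deficient lesions. Of all genes, 7.5% were likewise higher in each plain deficient library than in each wild-type one. Deficient lesions with added PBS had 17.4, 16.1, 16.0 and 9.70 CPM. Deficient lesions given PBS alone had 16.9, 16.1, 8.31 and 12.6 CPM, overlapping both the floxed and the wild-type controls. After 250000 ILC2s the deficient lesions had 11.2, 13.8, 12.3 and 23.9 CPM of Peg10. After 120000 ILC2s they had 82.4 and 42.4 CPM, and wild-type lesions given the same number had 13.7, 10.7 and 5.63 CPM. Ordered by mean log2 CPM, the deficient group given 120000 ILC2s was first, followed by the Cre fragments in deficient recipients, the plain deficient group, the 250000-cell group, the added-PBS group, the floxed controls, the deficient group with PBS alone, the wild-type group given ILC2s, the deficient fragments in Cre recipients, wild type and the Cre controls. The libraries of each neighbouring pair in that order overlapped.

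**Figure D1:**
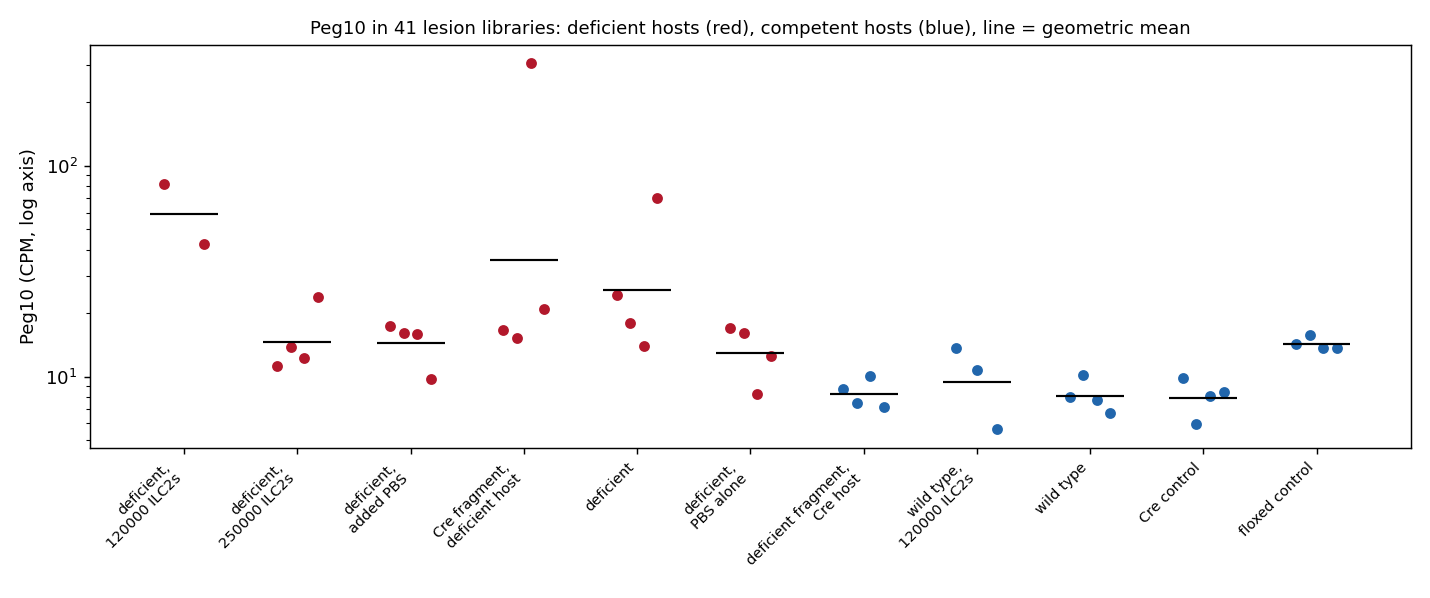
Peg10 in each of the 41 libraries, in CPM on a log axis, with groups side by side, red for deficient and blue for competent recipients and a line at each group's geometric mean. The library of a Cre fragment in a deficient recipient at 307 CPM stands far above the other 3 of its group, which lie between 15.3 and 20.9 CPM, and the floxed controls lie among the deficient groups.

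As log2 differences fitted by edgeR, Peg10 was 3.48 ± 0.66 higher in Cre fragments and 1.93 ± 0.62 higher in deficient fragments when the recipient was deficient rather than a Cre control. A high library weighs more in these fitted values than in the mean log2 CPM that ordered the groups. Mean log2 CPM of Peg10 was 5.17 against 3.00 in Cre fragments and 4.69 against 3.06 in deficient fragments, a smaller gap in both. The plain deficient group was 1.69 ± 0.45 above the mean of the 3 competent genotypes, and taken one at a time 1.97 ± 0.62 above Cre controls, whose library numbers interleave with its own, 1.96 ± 0.62 above wild type and 1.14 ± 0.61 above floxed controls. The added-PBS deficient group was 0.59 ± 0.47 above the same 3 genotypes, which the 2 comparisons share. Replicate 3 of the Cre fragments in deficient recipients and replicate 4 of the plain deficient group carried much of these values. Without both, the difference between deficient and Cre-control hosts was 1.17, and that within Cre fragments was 1.14. Leaving out replicate 4 of the plain deficient group alone gave 0.96 against the 3 genotypes and 1.195 within deficient fragments.

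None of the other 9 genes separated all deficient from all Cre-control hosts with both fragment genotypes combined. Their log2 differences ran from -0.57 ± 0.31 for Peg3, a zinc finger protein, to 0.21 ± 0.64 for Dlk1, with a median of -0.08, against 0.01 over all genes. For 6 of the 9 the value was below 0, and the libraries of both sides overlapped for each of the 9. In this comparison 0 of the 9 passed an adjusted p of 0.05, where 11.3% of all genes did, a count that is given as a description because the comparison was used to choose the set. H19 shows the spread: it had 709, 226, 891 and 150 CPM in plain deficient lesions and 966, 844, 316 and 533 CPM in Cre fragments in deficient recipients, against 353, 1268, 80.9 and 542 CPM in Cre controls and 1396, 618, 1174 and 238 CPM in deficient fragments in Cre recipients. High and low libraries of H19 occurred in each of these 4 groups. Cdkn1c, an inhibitor of the cell cycle, had 34.5, 21.7, 25.1 and 13.8 CPM in plain deficient lesions, against 30.8, 26.1, 19.2 and 37.3 CPM in Cre controls, and differed by 0.03 ± 0.21 between hosts. Grb10 differed by -0.07 ± 0.14 between hosts, so that its 95% interval ran from -0.36 to 0.22. Within Cre fragments the 9 ran from -0.30 to 1.17 and 0 of the 9 were free of overlap, where 9.38% of all genes were. Within deficient fragments 8 of the 9 were below 0, with a median of -0.60, and 2 did not overlap, where 13.2% of all genes did not. Meg3 had 390, 260, 356 and 222 CPM in deficient recipients, against 448, 466, 508 and 442 CPM in Cre recipients (-0.60 ± 0.34). Grb10 had 269, 223, 226 and 225 CPM in deficient recipients, against 270.1, 281, 300 and 322 CPM in Cre recipients (-0.32 ± 0.20).

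Other lists moved with the hosts. Of all genes 5.02% passed the threshold as higher in deficient hosts and 6.29% as lower. ILC2 activity genes were lower for 8 of 8. Endothelial genes were higher for 3 of 6 (Cdh5, Kdr and Tek) and lower for 1 (Vwf), and their share was 0.0515% to 0.0851% in deficient hosts, against 0.0531% to 0.0897% in Cre-control hosts. Adipocyte genes were higher for 3 of 8, with shares of 0.00597% to 0.0783% in deficient hosts, against 0.00518% to 0.027% in Cre-control hosts, and the 0.0783% was that of 1 library, replicate 3 of the plain deficient group, with the next at 0.0246%. On the proliferation list 8 of 8 genes passed the threshold as higher in deficient hosts, and the list took 0.0236% to 0.072% of the counts there, against 0.0151% to 0.0236% in Cre-control hosts. Epithelial genes took 0.00111% to 0.135% in deficient hosts, against 0.00454% to 0.0463% in Cre-control hosts, with 0 of 8 past the threshold. Mesothelial genes took 0.00746% to 0.0547% in deficient hosts, against 0.0151% to 0.0311% in Cre-control hosts, with 1 of 5 (Lrrn4) past the threshold as lower. The 2 libraries highest in Peg10 among these had epithelial shares of 0.0826% (Cre fragment in a deficient recipient) and 0.135% (plain deficient), the highest of their groups. In that order they were also the highest of their groups in proliferation share (0.072% and 0.0621%) and mesothelial share (0.0344% and 0.0547%). The part of proliferation, endothelial, adipocyte, epithelial or mesothelial content in the Peg10 values was not tested.

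**Figure D2:**
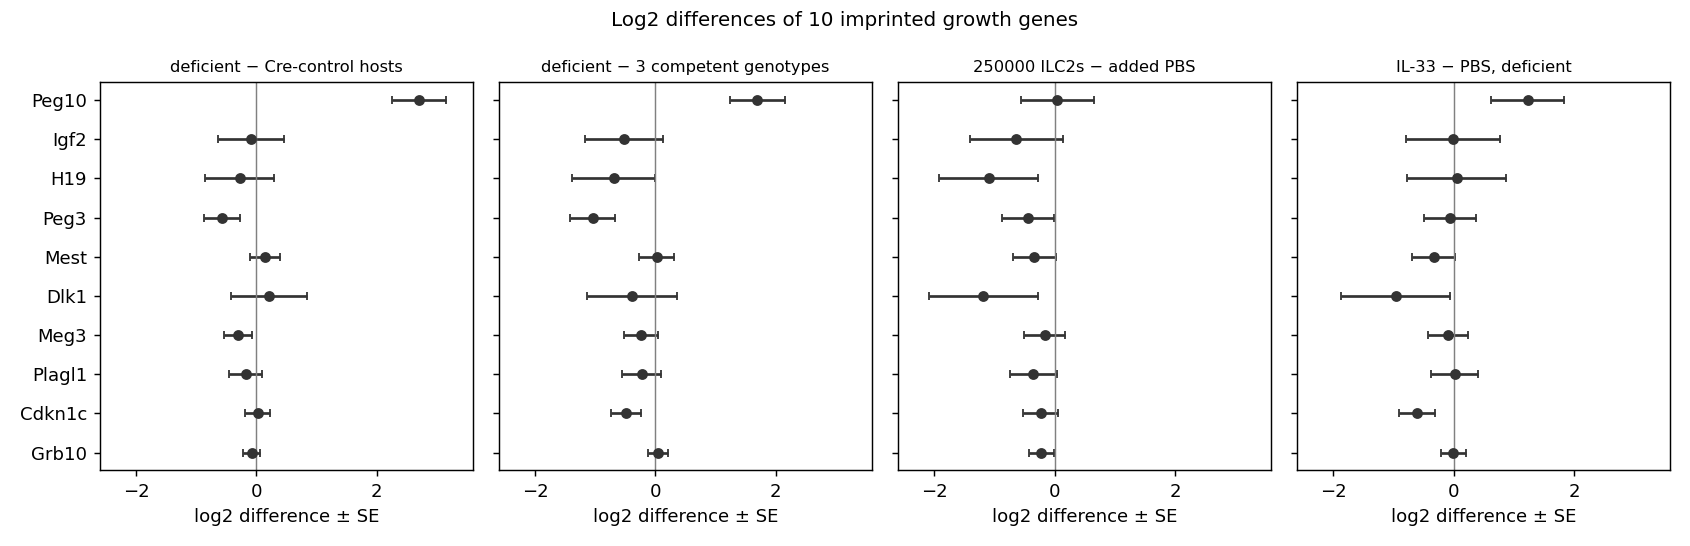
Log2 differences of the 10 genes (points, bars are SE) in 4 comparisons named above each panel, the first group minus the second. Peg10 lies at 2.70 and 1.69 in the 2 panels of deficient against competent lesions, while the other 9 lie between -1.04 and 0.21 there, and at 0.05 after transfer of 250000 ILC2s.

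Against all 3 competent genotypes the other 9 ran from -1.04 ± 0.37 (Peg3) to 0.04 ± 0.16 (Grb10), 7 of them below 0 and 0 past the threshold, where 11% of all genes passed. The choice of competent genotype changed these values. Peg3 had 70.1, 75.5, 92.5 and 35.5 CPM in plain deficient lesions, against 188, 140, 266 and 134.1 CPM in floxed controls, 235, 137, 120 and 208 CPM in wild type and 44.5, 92.2, 65.2 and 147.1 CPM in Cre controls. It was therefore lower than in each floxed and wild-type library and overlapped with the Cre controls. Against wild type alone Peg3 was the 1 of the 9 that did not overlap, where 14.4% of all genes did not in either direction. Igf2 had 10.6, 2.63, 10.7 and 2.56 CPM in plain deficient lesions, against 25.7, 20.1, 23.5 and 15.8 CPM in floxed controls and 3.98, 11.4, 1.24 and 6.49 CPM in Cre controls. Against floxed controls alone 4 of the 9 did not overlap, all lower in deficient lesions (Igf2, H19, Peg3 and Cdkn1c), where 17.1% of all genes did not overlap in either direction, and 2 passed the threshold, where 8.55% of all genes did. Such counts between deficient and competent lesions are descriptions. Skeletal muscle genes took 0.426% to 3.78% of the counts in the plain deficient group, against 2.64% to 4.34% in floxed controls, and their part in these values was not tested.

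**Figure D3:**
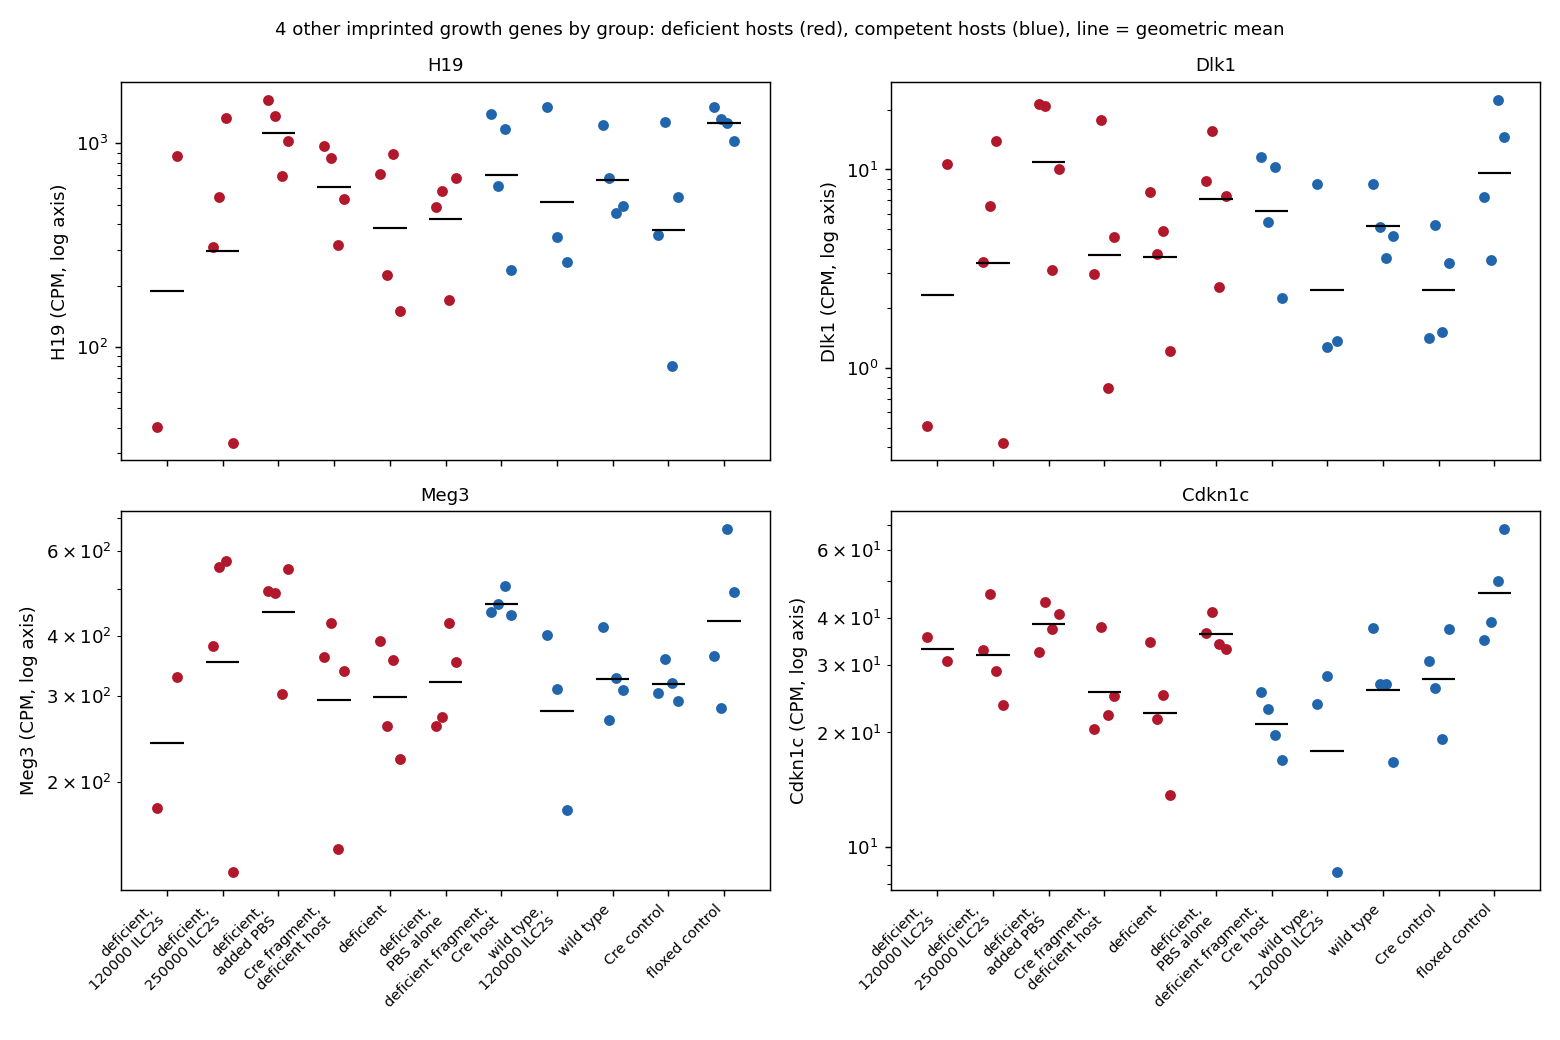
H19, Dlk1, Meg3 and Cdkn1c in each of the 41 libraries, in CPM on log axes, with groups, colours and lines (geometric means) as for Peg10. The plain deficient group overlaps the Cre controls for these 4 genes and lies below the floxed controls for H19 and Cdkn1c, and single libraries of a group can lie far apart, as for H19 after 250000 ILC2s, at 33.5 to 1327 CPM.

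The comparison of 250000 ILC2s with added PBS in deficient mice used 8 libraries that are not in the comparisons of plain deficient lesions with competent ones, nor in those between hosts. The rule behind the set does not say which deficient hosts showed the higher Peg10, so the added-PBS group may have had a part in the choice. Peg10 differed by 0.05 ± 0.60 (adjusted p = 0.986, edgeR quasi-likelihood test), with a 95% interval from -1.18 to 1.27 that leaves room for a change of more than 1 log2 unit either way. The other 9 were all below 0, from -1.18 ± 0.91 for Dlk1 to -0.17 ± 0.34 for Meg3, with a median of -0.36 against 0.04 over all genes and a lowest adjusted p of 0.676. Single libraries moved these values: without replicate 4 of the transfer group Meg3 was at 0.13 and Igf2 at -0.26, and without replicate 3 Dlk1 was at -1.99, H19 at -2.002 and Igf2 at -1.52. Dlk1 had 3.44, 6.56, 14.0 and 0.419 CPM after the transfer, against 21.4, 20.8, 3.12 and 10.1 CPM with added PBS. H19 had 309, 542, 1327 and 33.5 CPM after the transfer, against 1642, 1364, 692 and 1030 CPM with added PBS, so that the transfer group held both the lowest and, at 1327 CPM, one of the higher values. The libraries overlapped for each of the 10 genes, where 4.65% of all genes did not overlap. Skeletal muscle genes took 0.00885% to 4.65% of the counts after the transfer and 2.58% to 4.56% with added PBS, and epithelial genes took 0.00514% to 0.0386% after the transfer and 0.00107% to 0.00781% with added PBS. The part of either in these values was not tested. No gene passed the threshold in this comparison with edgeR (0% of 21249, 1849 at an unadjusted p under 0.05), and 14 did with DESeq2. The 8 ILC2 activity genes, with a median of -3.45 between hosts, had a median of 0.35 after this transfer and 0 past the threshold. A return of ILC2 activity was thus not detected in the lesion RNA, in a comparison where no gene passed with edgeR. The Peg10 value can therefore not be read as one for restored ILC2s.

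In the other 8 tested comparisons 0 of the other 9 passed the threshold either. Peg10 did not pass it in them, which is a description where libraries behind its choice enter. IL-33 against PBS in deficient mice shares the plain deficient group with the choosing comparison. Its Peg10 difference of 1.23 ± 0.61 (0.47 without replicate 4 of the plain deficient group) is therefore a description. Cdkn1c was at -0.61 ± 0.29, and its adjusted p of 0.730 (edgeR) was the lowest among the other 9, where 0.00941% of all genes passed. Cdkn1c had 34.5, 21.7, 25.1 and 13.8 CPM with IL-33, against 36.4, 41.4, 34.1 and 33.2 CPM with PBS, so that 1 of the IL-33 libraries reached the PBS range. The plain deficient group also enters the comparisons of 120000 ILC2s in deficient mice, fragment genotype, interaction and added PBS, and its high Peg10 was part of the choice. Cre-control, floxed and wild-type lesions and the lesion transfers likewise entered comparisons of deficient with competent hosts. The Peg10 p-values built on them below therefore come from libraries that may have had a part in the choice. Transfer of 120000 ILC2s gave 0.98 ± 0.71 for Peg10 in deficient mice, a description because the plain deficient group is its reference. The value was 1.68 without replicate 4 of that group and 0.41 without replicate 1 of the transfer group. In wild type the transfer gave 0.30 ± 0.65 for Peg10 (adjusted p = 0.999, edgeR). That was 0.006 without replicate 1 and 0.59 without replicate 3 of the transfer group. In both comparisons 0% of genes passed the threshold. There edgeR gave 400 genes in deficient mice and 841 in wild type at an unadjusted p under 0.05, and DESeq2 called 9 and 3. In deficient mice given 120000 ILC2s the 8 ILC2 activity genes had a median of 0.07, with 0 past the threshold.

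The genotype of the fragment gave -0.73 ± 0.43 for Peg10 (adjusted p = 1; 0.00471% of genes passed). The interaction, which asks whether the host difference depends on the fragment, gave -1.55 ± 0.85 (adjusted p = 0.431; 0.414% passed). Both turned on replicate 3 of the Cre fragments in deficient recipients: without it they were 0.45 and 0.80, and without it and replicate 4 of the plain deficient group 0.08 and 0.05. Cre controls were -0.82 ± 0.60 from floxed controls for Peg10 (adjusted p = 0.545; 0.329% passed), and each Cre-control library was below each floxed one. Igf2 showed the same order, so that 2 of the 10 did not overlap, where 9.52% of all genes did not. The other 9 were all below 0 in that comparison, from -2.04 ± 0.93 for Dlk1 to -0.23 ± 0.20 for Grb10, with a lowest adjusted p of 0.236 for Cdkn1c. Skeletal muscle shares did not overlap either, at 0.00573% to 2.54% in Cre controls and 2.64% to 4.34% in floxed controls, and their part in these values was not tested. Wild type differed from both controls by -0.40 ± 0.53 for Peg10 (adjusted p = 0.736; 2.65% passed).

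Between the added-PBS and the plain deficient groups 0 of the other 9 passed the threshold, and they were all above 0, from 0.37 ± 0.20 for Grb10 to 1.66 ± 0.92 for Dlk1. Peg10 differed by -1.10 ± 0.60 (-0.37 without replicate 4 of the plain deficient group), a value given as a description because Peg10 was chosen for its high level in deficient hosts. Mest, a paternally expressed gene of the hydrolase fold family, had 70.2, 58.7, 44.6 and 63.2 CPM with added PBS, against 35.9, 28.5, 37.2 and 19.02 CPM in the plain deficient group. Its libraries did not overlap, as for 10.1% of all genes, and its difference of 0.97 ± 0.35 missed the threshold (adjusted p = 0.178), which 0.0141% of all genes passed. Set against the 3 competent genotypes, the added-PBS group gave values above 0 for 8 of the other 9, and 1 of them, Mest at 0.99 ± 0.27, passed the threshold, where 11.6% of all genes did. That count is a description, because deficient and competent hosts are compared. Skeletal muscle genes took 2.58% to 4.56% of the counts with added PBS and 0.426% to 3.78% in the plain deficient group, and epithelial genes took 0.00107% to 0.00781% with added PBS and 0.0153% to 0.135% in the plain deficient group. The part of either in these values was not tested.

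Within groups the other 9 genes varied together, and Peg10 had negative correlations with each of them. Over the 41 libraries, with each group's mean removed from log2 CPM, Pearson's r among the 36 pairs of the other 9 was 0.359 to 0.973 (median 0.644). Igf2 and H19, neighbours on chromosome 7 (Igf2 at 142650766 to 142666816 and H19 at 142575529 to 142578143, both minus strand), had the highest, 0.973. Peg10 had r of -0.563 (Mest) to -0.088 (Cdkn1c) with the 9, and -0.413 to 0.131 without the 2 libraries farthest in Peg10. These values describe points that share library, depth and tissue make-up, and carry no test.

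**Figure D4:**
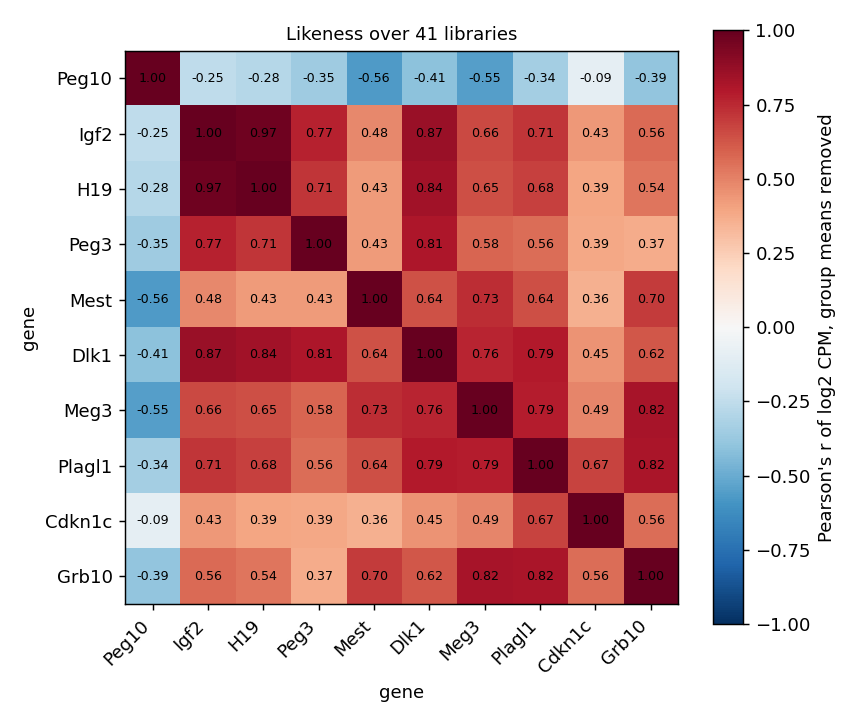
Pearson's r between each pair of the 10 genes over 41 libraries, from log2 CPM with group means removed, red for positive and blue for negative. The block of the other 9 is positive throughout (0.359 to 0.973), and the Peg10 row is negative off the diagonal (-0.563 to -0.088).

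Several of the 9 followed the muscle content of the lesion. The r with the skeletal muscle share was 0.944 for H19, 0.893 for Igf2, 0.726 for Dlk1, 0.675 for Plagl1, 0.573 for Peg3, 0.537 for Meg3, 0.510 for Grb10, 0.392 for Mest, 0.362 for Cdkn1c and -0.248 for Peg10. Grb10 was closer to the stromal share (r = 0.821) and the endothelial share (0.741), Mest to the stromal share (0.606) and Cdkn1c to the endothelial share (0.498). Meg3 was also closer to the stromal share (0.603), and Peg3 to the adipocyte share (0.633), than to the muscle share. The 3 libraries with the least muscle had the lowest H19 values: replicate 1 of the deficient group given 120000 ILC2s (0.00437% muscle, 40.4 CPM of H19), replicate 3 of the Cre controls (0.00573%, 80.9 CPM) and replicate 4 of the 250000-cell group (0.00885%, 33.5 CPM). Peg10 in the same 3 libraries was 82.4, 8.11 and 23.9 CPM, where the 8.11 CPM came from a competent host and the others from deficient hosts. The part of muscle content in Peg10 was not tested. For Peg10 the highest were the mesothelial share (r = 0.546, and 0.367 without the 2 libraries farthest in that share) and the epithelial share (0.532). The proliferation share followed (0.479, and 0.505 without the 2 libraries farthest in it). With the epithelial share r was -0.702 (Meg3) to -0.342 (Cdkn1c) for the other 9, and the marker Krt19 stands on both the epithelial and the mesothelial list. H19 and Igf2 are known from developing and regenerating muscle, and whether their RNA came from muscle was not tested.

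**Figure D5:**
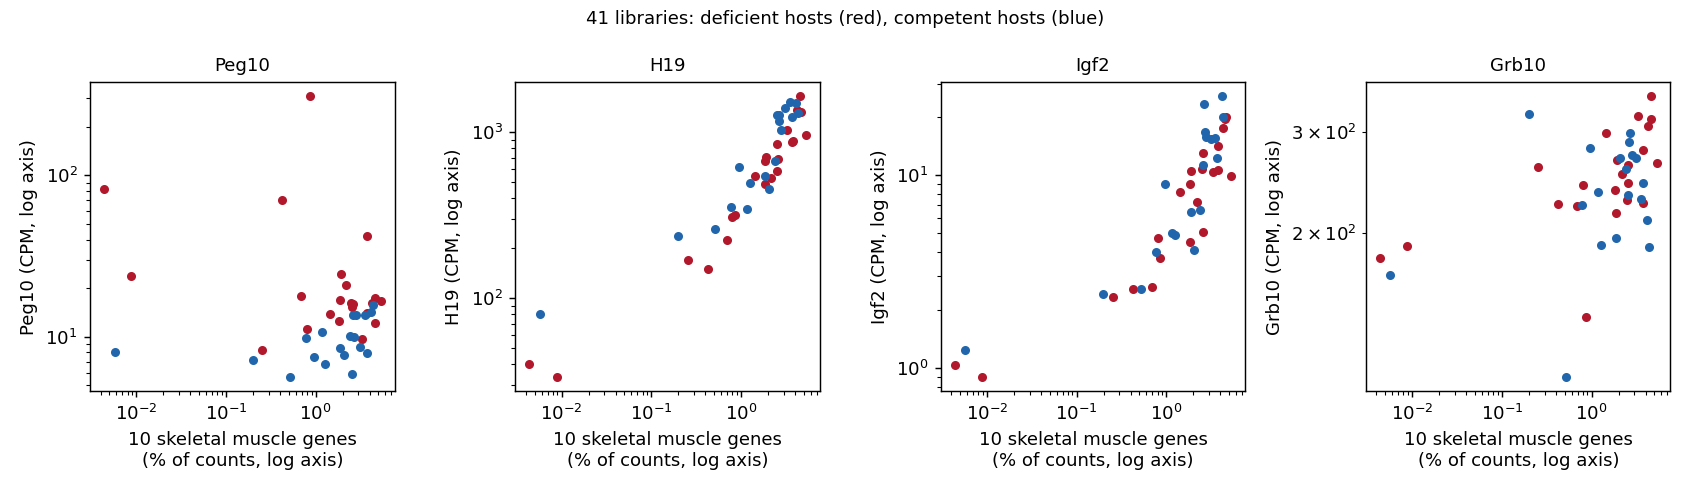
Peg10, H19, Igf2 and Grb10 (CPM, log axes) against the share of counts taken by 10 skeletal muscle genes (percent, log axis) in 41 libraries, red for deficient and blue for competent recipients. H19 and Igf2 climb with the muscle share (r = 0.944 and 0.893 with group means removed), and Peg10 does not (r = -0.248).

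Of 54 further imprinted genes listed, 48 were measured. Between deficient and Cre-control hosts 0 passed the threshold as higher and 3 as lower, where 5.02% of all genes passed as higher and 6.29% as lower, so that the share of 3 in 48 is near that of all genes. The median was -0.04 against 0.01 over all genes. Gatm, an enzyme of creatine synthesis, was -1.05 ± 0.19 (adjusted p = 0.000632), Ascl2, a transcription factor of placental precursors, -1.45 ± 0.34 (adjusted p = 0.00476), and Inpp5f, a phosphoinositide phosphatase, -0.28 ± 0.08 (adjusted p = 0.0251; 0.0863 without the 2 libraries highest in Peg10). Ascl2 was low throughout, at 0.128 to 0.543 CPM in deficient hosts, against 0.382 to 1.19 CPM in Cre-control hosts, and was also lower in wild type than in Cre and floxed controls (-1.57 ± 0.44, adjusted p = 0.0456). Against the 3 competent genotypes 5 of the 48 passed, where 11% of all genes did. Nnat was higher (1.58 ± 0.50, adjusted p = 0.0371), at 3.34, 3.62, 25.2 and 3.34 CPM in plain deficient lesions, and without replicate 3, the library at 25.2 CPM, it was 0.21 (adjusted p = 0.828). The other 4 were lower: Sfmbt2 (-0.81 ± 0.24, adjusted p = 0.0231), Gatm (-0.69 ± 0.23, adjusted p = 0.0489), Zrsr1 (-0.61 ± 0.15, adjusted p = 0.00743) and Inpp5f (-0.39 ± 0.10, adjusted p = 0.00968). For Gatm the floxed controls, at 25.5 to 40.0 CPM, overlapped the plain deficient lesions, at 31.8 to 36.9 CPM. Cre controls held 44.9 to 102.6 CPM of Gatm and wild type 48.95 to 98.7 CPM. With only the groups compared in the fit the adjusted p was 0.0801 for Nnat and 0.0518 for Gatm, whose call held in 4 of 16 fits that left out a library, and without the 2 libraries highest in Peg10 it was 0.0539 for Sfmbt2, 0.0678 for Zrsr1 and 0.103 for Inpp5f. Without replicate 4 of the plain deficient group 1 of the 48 passed against the 3 genotypes and 2 passed between hosts, and without replicate 3 of the Cre fragments in deficient recipients 5 passed between hosts. The added-PBS group, set against the same 3 genotypes, had 6 of the 48 past the threshold, where 11.6% of all genes were. Of these 4 were higher, among them Dcn (0.95 ± 0.22, adjusted p = 0.00466), a matrix proteoglycan, and Rian (0.91 ± 0.25, adjusted p = 0.0175), a noncoding RNA downstream of Meg3, and 2 were lower, Kcnq1 (-1.02 ± 0.32, adjusted p = 0.0355) and Zrsr1 (-0.53 ± 0.15, adjusted p = 0.0175). After 250000 ILC2s 0 of the 48 passed, where 0% of all genes did.

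Peg10 starts 99 bases from Sgce, which encodes epsilon-sarcoglycan and runs the opposite way from the same imprinted region. Sgce had 23.2, 29.5, 31.3 and 28.4 CPM in plain deficient lesions and 24.3, 29.4, 22.4 and 37.6 CPM in Cre fragments in deficient recipients, against 22.4, 19.5, 22.8 and 23.4 CPM in Cre controls and 22.6, 22.0, 20.6 and 24.5 CPM in deficient fragments in Cre recipients. Its host difference of 0.35 ± 0.13 missed the threshold (adjusted p = 0.0807), which it passed with DESeq2 (adjusted p = 0.0455) and with only these groups in the fit (adjusted p = 0.0416). The library with 307 CPM of Peg10 had 22.4 CPM of Sgce, the lowest of its group. Of 9 neighbours 1 passed as higher and 1 as lower between hosts, where 5.02% of all genes passed as higher and 6.29% as lower. Against the 3 competent genotypes 1 of the 9 passed, where 11% of all genes did. Casd1, a sialic acid acetyltransferase, was higher in deficient hosts (0.25 ± 0.07, adjusted p = 0.0143) and against the 3 competent genotypes (0.29 ± 0.08, adjusted p = 0.0133; 0.102 without the 2 libraries highest in Peg10). Pon2, a lactonase, was lower in deficient hosts (-0.29 ± 0.09, adjusted p = 0.0313; 0.113 with only these groups in the fit, and the call held in 10 of 16 fits that left out a library).

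Of 17 measured genes of the insulin-like growth factor axis, 0 passed between hosts, where 11.3% of all genes did. Igf1, the growth factor that shares its receptor with Igf2, was higher in deficient lesions than in the 3 competent genotypes (0.90 ± 0.24, adjusted p = 0.0121), at 297 to 677 CPM in deficient lesions and 139 to 404 CPM in competent ones. Without replicate 2 of the plain deficient group it was 0.58 and missed the threshold (adjusted p = 0.164). It was 1 of the 17 called, where 11% of all genes were.

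The 5 genes whose within-group pattern was most like Peg10 over the 41 libraries were Osbpl3 (r = 0.847), Ptpn22 (0.839), Ncoa7 (0.838), Wars (0.813) and Fryl (0.810). Without the 2 libraries farthest in Peg10, r was 0.725, 0.640, 0.740, 0.564 and 0.689 for the 5 in that order. None of the other imprinted members was among them, since their r with Peg10 was below 0.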

How the data were processed

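The values are raw counts per gene as the authors deposited them, for 21249 genes and 41 libraries. Trimmomatic, STAR, HTSeq, limma, edgeR and the build GRCm38 are named in the submitters' processing notes; versions, annotation and strand setting are not given in the sources used here. Without a known strand setting, reads of overlapping or antisense genes cannot be told apart (Igf2 with Igf2os, Mest with Copg2, H19 and Meg3 with microRNA genes), so these counts are uncertain. The lowest gene total was 411, so genes with few counts had been left out upstream; filterByExpr removed none.

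Groups came from the sample titles. Differences were fitted with edgeR 4.0.16 in R 4.3.3 by a two-sided quasi-likelihood F-test with TMM scaling and robust dispersions, on 1 design holding the 11 group means, with Benjamini-Hochberg adjustment over all genes at 0.05. Standard errors were taken as the size of the log2 difference over the square root of F. The biological coefficient of variation was 0.465. CPM correlations used a prior count of 2. DESeq2 1.42.0 was an alternative, and the fit was tested on simulated data. Positions are from GENCODE M21.

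The 10 members and the gene lists were chosen with earlier results of these data known. Members are named in full; of other lists, at most 3 genes per direction and comparison past the threshold, largest difference first, are named (a 4th lower gene and Sgce were added after their values were seen), and likeness lists the 5 genes with the highest r. No p is given for members where deficient and competent hosts are compared, and counts of members past the threshold there are descriptions. For Peg10 none is given either where the plain deficient group is set against another deficient group. Of 58 pairs of libraries within a group, none agreed within sampling noise.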

Additional observations from a re-analysis of the deposited data

Results flagged for a closer look

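Of 90 groups of 4 libraries tested for a library far from the other 3, 3 held one, and chance flags about 1 in 20. Peg10 was 307 CPM in replicate 3 of the Cre fragments in deficient recipients, against 15.3 to 20.9 CPM in the other 3. The same library had 143 CPM of Grb10, against 254 to 265 CPM in the other 3, and a total of 28.9 mega-counts. Grb10 was 269 CPM in replicate 1 of the plain deficient group under IL-33, against 223 to 226 CPM in the other 3.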

How the results depend on the processing

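Few genes passed the threshold in the 9 tested comparisons, at 0% to 2.65% of all genes in the main fit, so that 0 of 10 is near that share. For Peg10 such counts are a description where libraries behind its choice enter. In each of the 9 tested comparisons 0 of the 10 members passed the threshold under each alternative run: DESeq2 size factors, the DESeq2 test, no filter, at least 1 CPM in 4 libraries, only the groups compared, the replicate block, without the 4 liver libraries and each library left out in turn. Peg10 stayed higher in deficient hosts under each of these, with 1.54 to 2.88 between hosts, 1.14 to 3.83 within Cre fragments and 0.96 to 1.94 against the 3 competent genotypes when single libraries were left out. Without the 2 libraries highest in Peg10, a setting added after seeing the data, it was 1.17 between hosts and 1.14 within Cre fragments, and the fragment difference (0.08) and the interaction (0.054) changed sign. Leaving out single libraries gave -1.09 to 0.45 for the fragment, -2.29 to 0.80 for the interaction, and after 250000 ILC2s -0.25 to 0.17 for Peg10 and -0.37 to 0.13 for Meg3; the cause was not tested. Other imprinted genes past the threshold between hosts numbered 5 with DESeq2 against 3, and 2 to 5 with single libraries left out. Against the 3 genotypes they numbered 3 with the replicate block, 3 with only the groups compared, 1 without the 2 libraries highest in Peg10 and 1 to 5 with single libraries left out, against 5. Replicate numbers did not pair the samples (same-numbered r of -0.586 to 0.092 for 250000 ILC2s), and with the replicate block 5 genes passed in the interaction, against 88, and 2309 between hosts, against 2403. Groups of 2 to 4 libraries limit what could be detected.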
